A study of Mus with 9 samples.

Results

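Hippocampal levels of 6 ionotropic glutamate receptor subunit genes, the kainate receptor subunits Grik1, Grik2, Grik3, Grik4 and Grik5 and the delta subunit Grid1, were compared between 3 groups of mice. The genes were taken by an exact match of their symbol in the deposited tables, where each of the 6 had 1 probe set among 22206. A probe set is the group of short probes that reads 1 gene on the Clariom S Mouse array. Total RNA of the hippocampus was measured on 9 arrays, 3 per group. The SAMR1 group (senescence-accelerated mouse resistant 1) is a strain with normal aging and received vehicle. The SAMP8 group (senescence-accelerated mouse prone 8) is a related strain with early decline of memory and received vehicle for the same time. The TG-treated SAMP8 group received trigonelline (TG), a plant alkaloid, orally for 30 days at a daily dose of 5 mg/kg. The methods name SAMP8 mice of 16 weeks, describe them as male, and give no age for SAMR1. Acclimatization and the treatment period followed. All 3 groups were then trained in the Morris water maze, with TG continued during the test, before the hippocampus was taken. The age at that point is not stated. No transgene or induced mutation is involved, so SAMR1 and SAMP8 differ in genetic background rather than by an engineered gene. The vehicle is saline in the sample records and water in the methods, and the free-text description of the records names a macrophage cell line, so the titles, sources and tissue field were followed.

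Glutamate is the main excitatory transmitter of the hippocampus. Kainate receptors are cation channels of 4 subunits that it opens. GluK1, GluK2 and GluK3, encoded by Grik1 to Grik3, form channels by themselves or with each other, whereas GluK4 and GluK5, encoded by Grik4 and Grik5, bind agonist with higher affinity and need one of the first group to make a working channel. In the hippocampus kainate receptors are best known at the mossy fiber synapses between dentate granule cells and CA3 pyramidal cells, where they act before and after the synapse, and in inhibitory interneurons. The delta subunit GluD1, encoded by Grid1, has the same architecture but is known mainly as a synapse organizer. It binds cerebellins, secreted proteins that link it to neurexins on the presynaptic side.

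All values are the authors' group averages on the log2 scale, so a difference of 1 is a doubling. The tables used here hold these averages and not the values of single arrays, so they give no error, spread or test across mice. A difference is therefore set beside the differences of all probe sets in the same comparison, and a linear fold above 1.5 (0.585 on the log2 scale) served as the limit for counting. The averages carry 2 decimals, which leaves each difference uncertain by 0.01. Probe sets differ in how strongly they respond, so levels of different genes were not compared with each other. The group averages of all probe sets covered 2.39 to 19.93, and their medians were 6.09 (SAMR1), 6.04 (SAMP8) and 6.07 (TG-treated SAMP8). The SAMP8 column was identical in both tables, so the strain comparison and the TG comparison rest on the same SAMP8 arrays. All 6 listed markers of hippocampal principal cells were in the table, and no group average of any of them lay below 7.76. One of them, Camk2a, stood in all 3 groups at 19.93, the highest average of the tables, where a difference between groups may not be visible. Wfs1 differed by 0.44 between the strains and by -0.48 with TG.

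Grid1 was the subunit with the widest range across the groups. The Grid1 average was 6.20 in SAMR1, 6.20 in SAMP8 and 6.80 with TG. The strains had the same average, and the TG-treated group stood above both. Both strain averages were close to the medians of all probe sets, 6.09 in SAMR1 and 6.04 in SAMP8, so the Grid1 signal was modest. The gene lies on chromosome 14 from 34820003 to 35583387 (GRCm38). With TG the Grid1 average was 0.60 higher than in SAMP8, a 1.52-fold difference, and it was also 0.60 higher than in SAMR1. Among all probe sets, 4.23% had a difference at least as high between TG-treated SAMP8 and SAMP8, and 5.39% between TG-treated SAMP8 and SAMR1. Among the 2440 probe sets whose mean signal lay within 0.5 of that of Grid1, 6.02% exceeded the 1.5-fold limit upward with TG. A range across the 3 averages at least as wide as that of Grid1 was found for 19.8% of all probe sets. The Grid1 difference with TG lies just past the limit. It was 0.57 after the median of each group was subtracted and 0.58 after quantile normalization, both short of the limit. The study's supplementary heatmap sheets list Grid1 per array in a pair of sheets whose values differ, and in one of them the TG-treated columns of every gene are the SAMP8 columns moved by a single constant. In the other sheet the Grid1 means of SAMR1 and SAMP8 are the deposited averages within rounding, and the mean of the TG-treated group is not. Neither sheet was used for any value here.

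**Figure D1:**
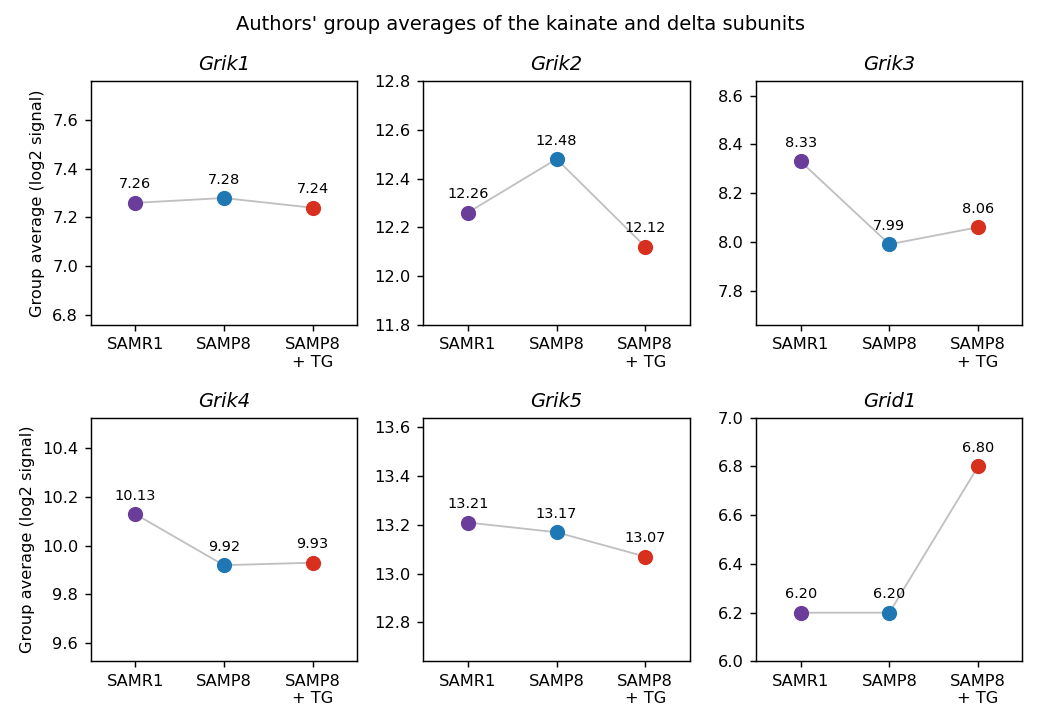
Group averages of the 6 subunit genes as deposited (y axis, log2 signal, each panel spanning 1 log2 unit) for the 3 groups of mice (x axis). Each point is the authors' average of 3 arrays and has no error bar because no array values were used. Grid1 is level between the strains at 6.20 and higher at 6.80 with TG, and Grik1 stays between 7.24 and 7.28.

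Grik2 encodes GluK2, a principal kainate subunit of hippocampal pyramidal and granule cells, and lies on chromosome 10 from 49093680 to 49790161. The Grik2 average was 12.26 in SAMR1, 12.48 in SAMP8 and 12.12 with TG. SAMP8 was the highest and the TG-treated group the lowest of the 3. The difference between SAMP8 and SAMR1 was 0.22 (1.16-fold), at the percentile 75.2 of all probe sets and 62.6 of the 633 with a like signal. Between TG-treated SAMP8 and SAMP8 the difference was -0.36 (1.28-fold lower), at the percentile 11.8. Both differences involve the same SAMP8 average with opposite sign. The TG-treated average was also below that of SAMR1, by a log2 difference of -0.14. The order of the 3 groups for Grik2 was the same as deposited, after subtraction of the group medians and after quantile normalization, although the difference between the strains was 0.09 under the last.

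Grik1 was the subunit with the narrowest range. It encodes GluK1, which in the hippocampus is known mainly from inhibitory interneurons, and lies on chromosome 16 from 87895901 to 88290863. The Grik1 average was 7.26 in SAMR1, 7.28 in SAMP8 and 7.24 with TG. These 3 averages span 0.04, and 98.6% of all probe sets had a range at least as wide. The small difference between the strains, 0.02, became -0.03 after quantile normalization. Of 9 interneuron markers in the same tables, 3 (Pvalb, Sst and Vip) were more than 1.5-fold higher and 0 more than 1.5-fold lower with TG than without, beside 4.48% of all probe sets upward. The genes of GABA synthesis and vesicle loading, Gad1, Gad2 and Slc32a1, differed with TG by -0.35, -0.43 and -0.20. The median difference of the 9 markers was 0.38 and their summed level was 13.82 in SAMR1, 13.84 in SAMP8 and 14.09 with TG. In tissue RNA, fewer cells of a type and less RNA per cell cannot be told apart.

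Grik3 encodes GluK3, a subunit of low glutamate sensitivity known from presynaptic receptors, and lies on chromosome 4 from 125490259 to 125714173. The Grik3 average was 8.33 in SAMR1, 7.99 in SAMP8 and 8.06 with TG. Both SAMP8 groups stood below SAMR1. The log2 difference between SAMP8 and SAMR1 was -0.34 (1.27-fold lower), at the percentile 15.3 of all probe sets and 10.4 of the 1887 with a like signal. TG-treated SAMP8 differed from SAMP8 by 0.07 and from SAMR1 by -0.27. After the group medians were subtracted the strain difference of Grik3 was -0.29, and after quantile normalization it was -0.45.

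Grik4 and Grik5 encode the high-affinity subunits. Grik4, on chromosome 9 from 42518182 to 42945000, is known for its high expression in CA3 pyramidal cells. Its average was 10.13 in SAMR1, 9.92 in SAMP8 and 9.93 with TG. As with Grik3, SAMR1 had the highest average and the SAMP8 groups were close to each other. The strain difference of Grik4 was -0.21 (1.16-fold lower), at the percentile 24.5 of all probe sets and 10.8 of the 1361 with a like signal. It was -0.37 after quantile normalization. The difference of Grik4 with TG was 0.01, which became -0.02 after the group medians were subtracted. Of 4 listed CA3 markers 3 were in the table. Each of them was higher in SAMP8 than in SAMR1 (median difference 0.66), beside 49.5% of all probe sets. Each was also lower with TG than without (median difference -0.65), beside 48.3%. Both differences of a marker use its same SAMP8 average with opposite sign, so they are not independent. Their summed level was 11.32 in SAMR1, 11.54 in SAMP8 and 10.57 with TG. Most of this sum is Cpne4 (11.20, 11.35 and 10.30 in the same order). With TG, Bok and Iyd stood above SAMR1, by 0.40 and 0.33, while Cpne4 differed from SAMR1 by -0.90. The part of these markers in the values of Grik4 was not tested.

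Grik5 encodes GluK5, a widely expressed partner subunit, and lies on chromosome 7 from 25009849 to 25075694. The Grik5 average was 13.21 in SAMR1, 13.17 in SAMP8 and 13.07 with TG. The 3 averages of Grik5 span 0.14, and 86.7% of all probe sets had a range at least as wide. Its strain difference of -0.04 lay at the percentile 43.4 of all probe sets and 24.9 of the 458 with a like signal. The strain difference changed sign to 0.01 when the group medians were subtracted and was -0.14 after quantile normalization. The difference of Grik5 with TG was -0.10.

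Across the 6 subunits, 0 passed the 1.5-fold limit between SAMP8 and SAMR1, where 11.1% of all probe sets did in either direction. The differences of the 6 ran from -0.34 to 0.22 with a median of -0.02, against a median of 0.00 for all probe sets. In this comparison 2 subunits were higher, 3 lower and 1 equal. Between TG-treated SAMP8 and SAMP8, 1 of 6 passed the limit, Grid1, beside 8.21% of all probe sets in either direction and 4.48% upward. The median was again -0.02, with 3 subunits higher and 3 lower. Against SAMR1, TG-treated SAMP8 had 1 of 6 past the limit, again Grid1, beside 10.5% of all probe sets in either direction and 5.62% upward. In this last comparison all 5 kainate subunits were lower, with differences from -0.27 to -0.02 and a median of -0.14, while 50.4% of all probe sets were lower. The Grik1 difference of -0.02 was 0.00 once the group medians were subtracted. The values of the 5 kainate genes lay between the 5th and the 95th percentile of all probe sets in each comparison, which ran from -0.63 to 0.58 for SAMP8 vs SAMR1, from -0.53 to 0.56 for TG-treated SAMP8 vs SAMP8 and from -0.58 to 0.61 for TG-treated SAMP8 vs SAMR1.

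**Figure D2:**
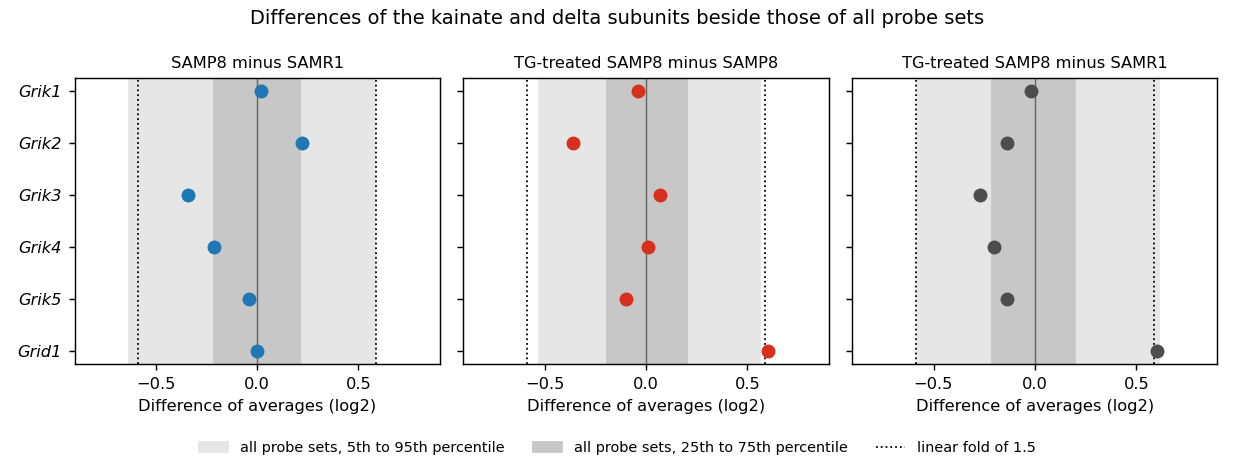
Differences of group averages (x axis, log2) of the 6 subunit genes (y axis) in the 3 comparisons, 1 panel each. Light and dark grey bands mark the 5th to the 95th and the 25th to the 75th percentile of all 22206 probe sets, and dotted lines a linear fold of 1.5 in either direction. Grid1 at 0.60 is the one subunit past the limit, in both comparisons with the TG-treated group.

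The likeness of the subunits' patterns was measured as the Euclidean distance between their 3 group averages after the mean of each probe set was subtracted. Among the 6, the closest pair was Grik1 and Grik5 (distance 0.085), followed by Grik3 and Grik4 (0.092), and the most distant was Grik2 and Grid1 (0.711). Every distance of Grid1 to a kainate subunit lay between 0.515 and 0.711, above the widest distance between kainate subunits, 0.414 for Grik2 and Grik3. Each subunit was then set against 42 genes, the other subunits, the remaining glutamate receptors and the partner proteins described below. The nearest to Grid1 were Grm4 (0.128) and Grm2 (0.159), both metabotropic receptors. The nearest to Grik2 were C1ql3 (0.029) and Adar (0.064). Grin3b (0.049) and Grin1 (0.065) were nearest to Grik1, and Gria2 (0.042) and Grik1 to Grik5. Grik4 was nearest to Grik3, with Grin3a (0.188) next, and Grik3 was nearest to Grik4, with Grik5 (0.122) next. These distances rest on 3 averages each and are descriptions.

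Other glutamate receptor genes were described beside the subunits. The 11 AMPA and NMDA subunits, which carry most fast excitatory current and its calcium-permeable component, had a median difference of 0.11 between SAMP8 and SAMR1 and of -0.17 with TG. Of these 11, 9 were higher in SAMP8 than in SAMR1, beside 49.5% of all probe sets. With TG 8 of the 11 were lower than without, beside 48.3%. The same SAMP8 averages enter both comparisons with opposite sign. These shares cover probe sets of every signal level, and shares among those of like signal were not computed for the 11. Signal can matter here. The strain difference of Grik5 stood at the percentile 43.4 of all probe sets but 24.9 of those with a like signal. Of the 11, 0 passed the limit in either comparison. The kainate subunits had medians of -0.04 in both. For 5 metabotropic receptors, which signal through G proteins, the medians were 0.11 and 0.05. Of these 16 other receptor genes, 0 passed the limit between the strains, beside 11.1% of all probe sets, and 1, the presynaptic receptor gene Grm2, did with TG, beside 8.21%. Its averages were 10.55 in SAMR1, 10.33 in SAMP8 and 11.08 with TG, so it was 1.68-fold higher with TG. Against SAMR1, TG-treated SAMP8 had Grin2d (1.72-fold) and Grm4 (1.55-fold) past the limit, both higher, beside 10.5%. The Grin2d average in SAMR1, 5.44, lay below 6.09, the median of all probe sets in that group. The difference between the receptor classes was not tested, since no array values were used.

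**Figure D3:**
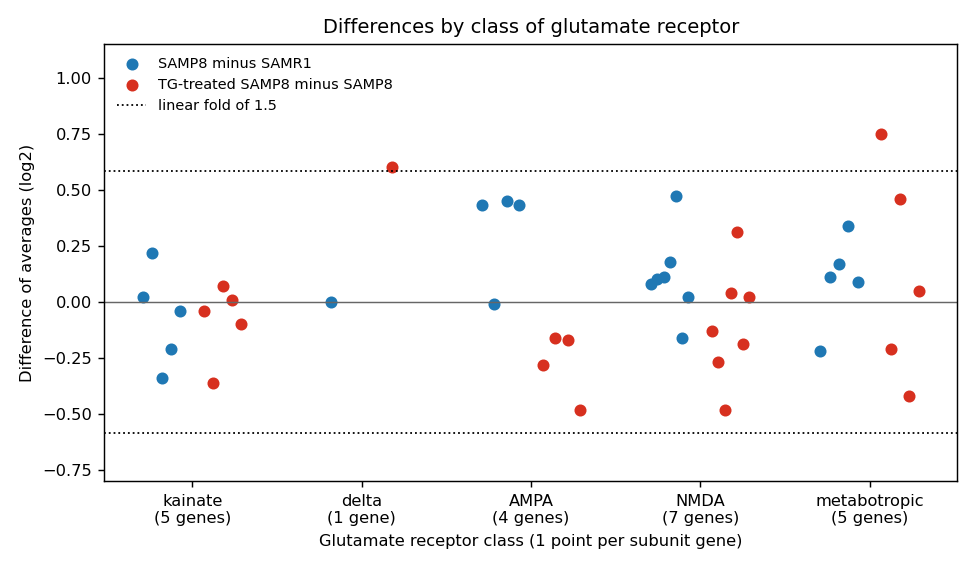
Differences of group averages (y axis, log2) for single glutamate receptor genes (points) by class (x axis), in blue for SAMP8 minus SAMR1 and in red for TG-treated SAMP8 minus SAMP8. Dotted lines mark a linear fold of 1.5, which Grid1 and Grm2 exceed with TG.

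Proteins that assemble with kainate and delta receptors, or modify them, were followed as a list of 24 genes, of which 21 were in the table. Neto1 and Neto2 encode auxiliary subunits that slow the closing of kainate receptor channels. The Neto1 average was 13.90 in SAMR1, 13.57 in SAMP8 and 13.29 with TG. The SAMR1 average was the highest and the TG-treated one the lowest, and the TG-treated group was 1.53-fold below SAMR1. For Neto2 the averages were 10.76, 10.97 and 10.47, again for SAMR1, SAMP8 and TG, which gives a difference of -0.50 with TG.

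The cerebellins, which bind GluD1, held the widest differences of the list. The Cbln2 average was 5.28 in SAMR1, 6.58 in SAMP8 and 6.97 with TG, so SAMP8 was 2.46-fold and TG-treated SAMP8 3.23-fold above SAMR1. The SAMR1 average of Cbln2 lay below 6.09, the median of all probe sets in that group. Cbln1 stood at 6.37 in SAMR1, 7.64 in SAMP8 and 7.25 with TG, which is 2.41-fold higher in SAMP8 than in SAMR1. For both genes the averages of both SAMP8 groups lay above that of SAMR1, whereas their receptor Grid1 had equal averages in the strains. Cbln4 went the other way, with 8.03, 7.71 and 7.51 in the same order of groups. Cbln1 and Cbln2 are also expressed in the thalamus, which borders the hippocampus. Of 7 thalamus markers, 2 were more than 1.5-fold higher and 1 more than 1.5-fold lower in SAMP8 than in SAMR1, beside 11.1% of all probe sets in either direction. With TG, 1 was more than 1.5-fold higher and 2 more than 1.5-fold lower than in SAMP8, beside 8.21% of all probe sets. Against SAMR1 these counts were 2 and 2, beside 10.5%. Zic1 and Prkcd were the lower genes in both, and Tcf7l2 and Slc17a6 the higher ones against SAMR1. The summed level of the thalamus markers was 12.45 in SAMR1, 12.72 in SAMP8 and 11.65 with TG. The lowest group average among them was 5.16, and their part in the cerebellin values was not tested. The neurexins Nrxn2 and Nrxn3, at the presynaptic end of this bridge, had strain differences of 0.40 and -0.02 and differences with TG of -0.11 and -0.35.

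Of the scaffold and adhesion genes, Dlg4, encoding the postsynaptic density protein PSD-95, was at 16.56, 17.03 and 16.47, and its difference with TG of -0.56 lay just inside the limit. Adarb1 and Adar encode enzymes that edit receptor transcripts, Adarb1 among them those of kainate subunits, and differed with TG by -0.01 and -0.41. The array does not read editing. Across the 21 genes, 2 were past the limit between SAMP8 and SAMR1, both higher, 0 were past it with TG against SAMP8, where the differences ran from -0.56 to 0.39, and between TG-treated SAMP8 and SAMR1 there were 2 higher and 1 lower. The shares of all probe sets past the limit in these comparisons, 11.1%, 8.21% and 10.5%, are near the shares of the partners between the strains and against SAMR1. Their median difference was 0.21 between the strains and -0.23 with TG.

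**Figure D4:**
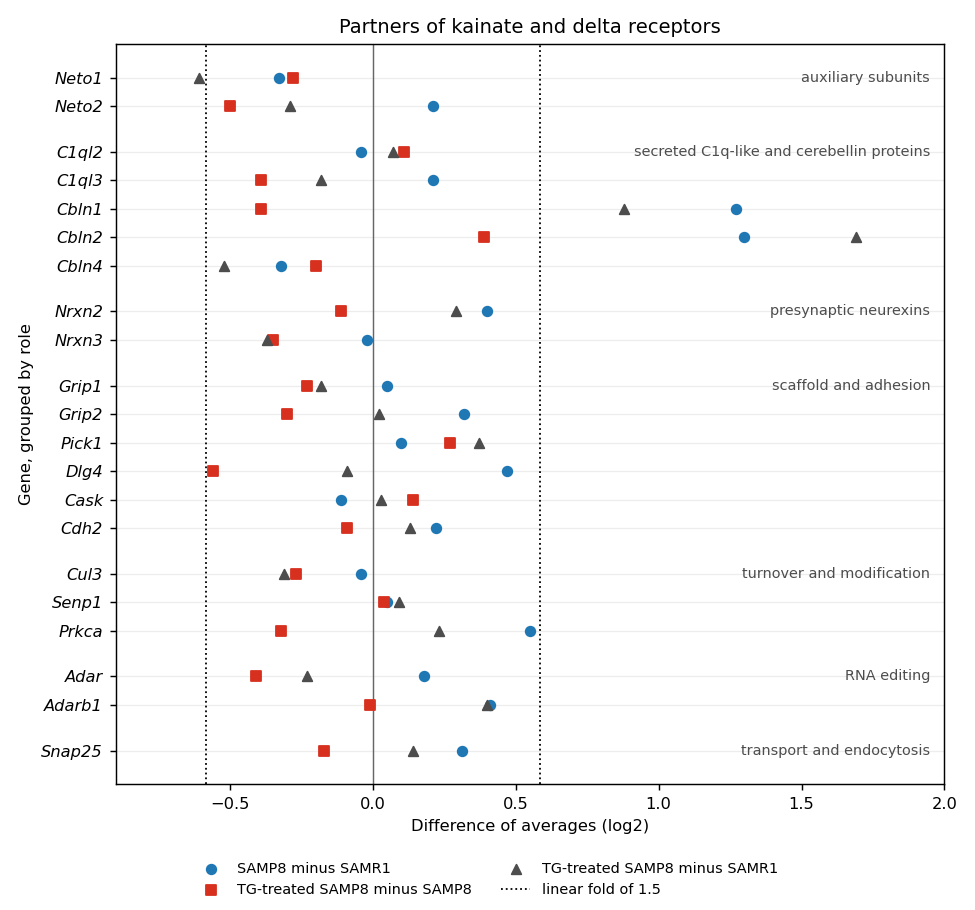
Differences of group averages (x axis, log2) of the 21 partner genes in the table (y axis, grouped by role) for the 3 comparisons, marked by colour and shape. Dotted lines mark a linear fold of 1.5. Cbln1, Cbln2 and Neto1 are the genes with a point outside them.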

How the data were processed

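Clariom S Mouse arrays measured the RNA of 9 hippocampi. The authors summarized array intensities by SST-RMA in Transcriptome Analysis Console and deposited, in a table per comparison, the log2 signal averaged over the 3 arrays of each group, annotated on mm10 (GRCm38). The authors' fold changes, p-values and adjusted p-values in the same tables were not used. Here both tables were joined by probe set, and differences of averages were computed for SAMP8 vs SAMR1, TG-treated SAMP8 vs SAMP8 and, across the tables, TG-treated SAMP8 vs SAMR1. With averages alone no test, SD or omission of an array was possible. The number of arrays limits the precision.

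Probe sets were counted past a linear fold of 1.5, with 1.1, 1.2 and 2 as alternatives. Other alternatives were subtraction of group medians, quantile normalization, a background without the dimmest 25% of probe sets, and unique symbols. Text names every member, receptor and partner genes past 1.5, and the 2 genes of most like pattern per member. Other genes of the lists were named after their values were seen. Some genes of the lists are not reported here. Members and lists were chosen with earlier results of these data known. A summed level is the log2 of the summed linear averages. Gene positions are from RefSeq (GRCm38), which matched all 6 symbols. The functions were tested on simulated data. Software was Python 3.11.15, matplotlib 3.10.9, scipy 1.17.1, pandas 2.3.3 and numpy 2.4.6.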

Additional observations from a re-analysis of the deposited data

How the results depend on the processing

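Of 45 counts of genes past the fold limit recomputed under other limits or scalings, 18 stayed within 1.5 times the count given above. At a limit of 1.1-fold, 3, 2 and 5 of the 6 subunits passed in SAMP8 vs SAMR1, TG-treated SAMP8 vs SAMP8 and TG-treated SAMP8 vs SAMR1, beside 65.5%, 63.4% and 64.9% of all probe sets. The other glutamate receptors then numbered 9, 12 and 11, and the partners 14, 16 and 15. At 1.2-fold the subunits numbered 1, 2 and 2, the other receptors 5, 8 and 6, and the partners 10, 12 and 10. The shares of all probe sets at 1.2-fold were 40.8%, 38.2% and 40.5% in the same order of comparisons. At 2-fold, both comparisons with the TG-treated group had 0 subunits and 0 other receptors. The shares of all probe sets were 0.761% for TG-treated SAMP8 vs SAMP8 and 1.81% for TG-treated SAMP8 vs SAMR1. In the latter, 1 partner passed. With the group medians subtracted, or after quantile normalization, 0 subunits passed the 1.5-fold limit with TG against SAMP8. The shares of all probe sets in that comparison were 8.27% and 7.77%. The first of these scalings gave 1 partner there, and the second gave 1 other receptor for TG-treated SAMP8 vs SAMR1, beside 10.4%. Leaving out the lowest signals or repeated symbols could change only the background, which for TG-treated SAMP8 vs SAMP8 was then 9.64% or 7.95%. The order of the groups changed for 4 subunits when medians were subtracted, where the 3 averages then spanned 0.07 for Grik1, 0.18 for Grik4, 0.13 for Grik5 and 0.62 for Grid1. Quantile normalization changed it for Grik1 (0.05) and Grid1 (0.63). The shift of a subunit's difference was at most 0.05 and 0.16 under these scalings, and no difference past the limit changed sign. The alternatives for the other receptors, the partners and the order of groups were chosen after seeing the data. No paired analysis was possible because the tables hold group averages and no values per replicate.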
